A study of Homo sapiens with 2 samples.

Results

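The chaperone and co-chaperone genes described here were chosen by symbol, without the use of any measured value, although earlier results of these data were known. They are the protein-coding genes of the RefSeq gene table (GRCh38.p14, the same build as hg38) whose symbol starts with HSPA, HSPB, HSPD, HSPE, HSPH, HSP90, DNAJA, DNAJB or DNAJC, or is TCP1 or one of CCT2 to CCT8, with CCT6A and CCT6B standing for CCT6. The rule found 84 genes of the 19821 protein-coding genes on chromosomes 1 to 22 and X. The cells were wild-type HUDEP-2, an immortalised line of human erythroid progenitors, sampled as 1 group of 2 biological replicates. They were assayed by PRO-cap, a nuclear run-on method in which the capped 5′ ends of nascent RNA are sequenced to mark where transcription begins. The labels name no treatment, no second genotype and no other line, so that all values describe 1 cell line as it was grown. The deposited data are 26395 called start positions, each 1 base long, of which 26332 lie on these chromosomes. The calls carry no strength, read count or replicate, so that the depth behind a call is unknown, no spread between replicates can be given and no test between samples was possible. All 9 erythroid marker genes reported (GATA1, KLF1, EPOR, ALAS2, AHSP, SLC4A1, HBB, HBD and TFRC) had a called start, against 1 of 16 markers of other cell types, the megakaryocyte integrin ITGA2B.

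Chaperones bind proteins that are not yet folded or have lost their fold. HSP70 proteins grip short exposed stretches in a cycle driven by ATP, J-domain proteins (DNAJA, DNAJB and DNAJC) bring them clients and speed the cycle, and HSP110 proteins and other exchange factors reset it. HSP90 finishes the maturation of kinases and receptors, the barrel-shaped chaperonins TRiC and HSP60 enclose a whole protein, and small HSPs hold unfolded proteins until HSP70 takes over. In erythroid cells, which fill with globin, HSP70 is also known to shield the transcription factor GATA1 from cleavage by caspases. Many cytosolic chaperone genes are switched on by the heat shock factor HSF1, which binds inverted repeats of GAA called heat shock elements.

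A gene was counted as having a called start when a call lay within 500 bp of one of its outer ends and pointed into the gene. By this rule 53 of the 84 chaperone genes had a called start (63.1%, 95% Wilson interval 52.4 to 72.6), beside 41.4% of all protein-coding genes. The interval, like all intervals given here, covers counting error over genes only. Any call in the gene or within 500 bp of it was found for 65 of 84 (77.4%, 67.4 to 85.0), beside 52.6%. The remaining 31 genes without a called start fell into 3 kinds. There were 9 that held a call deeper inside, 3 whose calls ran outward from an end and 19 with no call. Chaperone genes without a called start had a median length of 7690 bp and all 84 one of 18506 bp, beside 21236 bp and 24482 bp for all protein-coding genes. Read-through genes share a start with the gene they join, so that the 53 genes correspond to 51 distinct called positions.

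The cytosolic chaperonin TRiC, whose ring folds actin and tubulin, had a start for 9 of 9 genes (70.1 to 100). The mitochondrial chaperonin genes HSPD1 and HSPE1 and the read-through HSPE1-MOB4 had 3 of 3 (43.9 to 100), and the exchange factor HSPH1 is the 1 gene of its class and was called. Classes follow the symbols, so that the HSP110-type genes HSPA4 and HSPA4L are counted in HSP70. DNAJA had 3 of 4 (75%, 30.1 to 95.4), DNAJC 18 of 29 (62.1%, 44.0 to 77.3), DNAJB 7 of 12 (58.3%, 32.0 to 80.7) and HSP70 8 of 14 (57.1%, 32.6 to 78.6). The uncalled HSP70 genes HSPA1A, HSPA1B and HSPA1L lie in a long stretch of chromosome 6 without any call, described below. Without these 3 genes HSP70 had 8 of 11. HSP90 had 1 of 3 (33.3%, 6.15 to 79.2) and small HSPs 1 of 7 (14.3%, 2.57 to 51.3). HSPBP1, an exchange factor of HSP70, and HSPBAP1, which binds HSPB1, share the HSPB letters without being small HSPs, and both had a start. The intervals of TRiC and of small HSPs did not overlap, whereas those of HSP70, DNAJB and DNAJC overlapped nearly throughout. The share of all protein-coding genes, 41.4%, lay inside the interval of small HSPs and below that of TRiC. With a sense call within 50 bp of a listed start counted instead, TRiC had 6 of 8 listed genes and small HSPs 1 of 6.

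**Figure D1:**
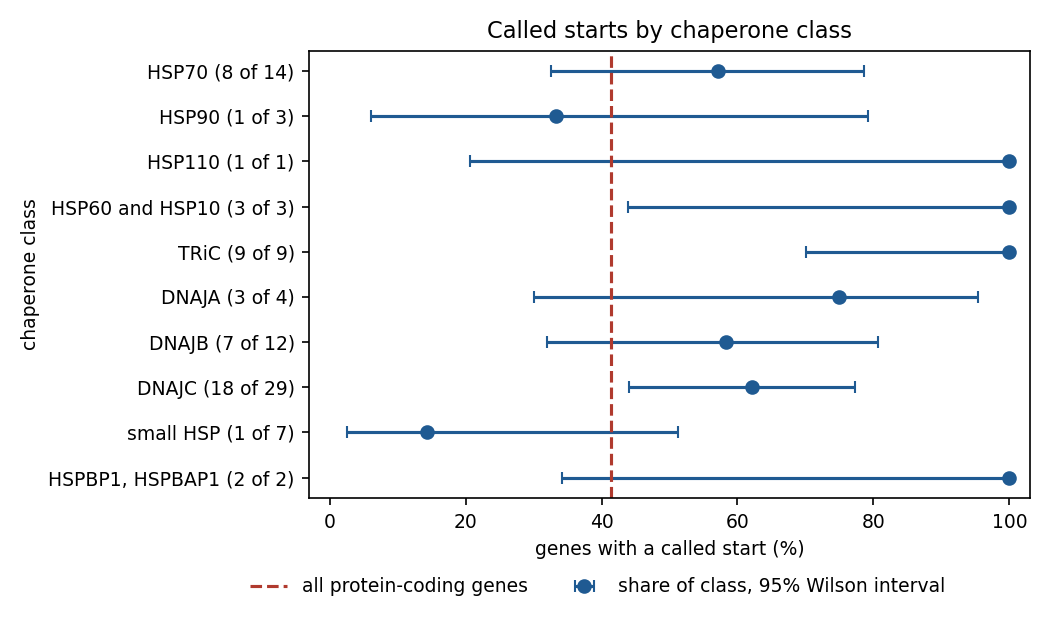
Share of genes with a called start in each chaperone class (points, % of the class, with 95% Wilson intervals and the counts at the left) and in all protein-coding genes (dashed line at 41.4%). TRiC stands at 9 of 9 and small HSPs at 1 of 7, and the intervals of the classes of 1 to 4 genes are wide. HSP70 includes 3 genes in a stretch of chromosome 6 without any call.

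Of the HSP70 genes, the constitutive cytosolic HSPA8 had its call at 123062136 of chromosome 11, 326 bp inside the outer end of the gene and exactly at the start that the promoter table lists. A shift of all deposited positions by 1 base is possible, as described with the bases at the calls, so that distances of 0 and 1 bp are not firmly distinguished. The ER protein HSPA5 (BiP), which drives folding in the secretory pathway, was called at 125241344 of chromosome 9, 1 bp outside its end. HSPA9, the mitochondrial HSP70 (mortalin), had 2 inward calls, the nearer at 138575411 of chromosome 5 and 10 bp outside the end. HSPA4, an HSP110-type exchange factor, was called at 133052012 of chromosome 5, and HSPA4L, its paralogue, at 127781766 of chromosome 4, 1 and 30 bp outside their ends. HSPA4L also held a call at 127782321, 1 base before a second listed start. HSPA13, an ER-associated HSP70, was called at 14383144 of chromosome 21 (2 bp inside) and HSPA14, which works with the ribosome, at 14838321 of chromosome 10 (15 bp inside). HSPA6, a heat-inducible HSP70, had 2 inward calls, the nearer at 161524539 of chromosome 1, 1 bp outside its end. HSP70 genes resemble each other in sequence, so that a call at a member with a close copy is uncertain. Thus 7 of the 8 called HSP70 genes had their nearest call within 30 bp of the gene end, and HSPA8 had it at an annotated start further in.

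The 6 other HSP70 genes had no called start. The stress-inducible pair HSPA1A and HSPA1B and the neighbouring HSPA1L, a testis form, held no call at all. The promoter windows of HSPA1A and HSPA1B, 300 bases each, differ by 24 edits. Copies alike in sequence can make a missing call uncertain, but how alike the transcribed stretches are was not tested. All 3 genes also lie in a stretch of chromosome 6 from 28503296 to 33541000 with 430 genes, 172 of them protein-coding, and 0 calls, while 11 calls lay on alternate sequences of chromosome 6. The part of this stretch in the missing calls was not tested. HSPA12A, a distant HSP70 relative, held no call either, and HSPA12B held 1 reverse call at 3740297 of chromosome 20. HSPA2, best known from testis, had no call at its outer ends but 4 inside, of which the forward call at 64540741 of chromosome 14 fell exactly on its listed start, 4836 bp into the gene.

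The HSP90 genes show the same kind of inner start. HSP90B1 (GRP94), the ER form, was called at its annotated end, position 103930410 of chromosome 12. HSP90AB1, the constitutive cytosolic form, had no call at its outer ends, but a forward call at 44247101 of chromosome 6, exactly on the second of its 3 listed starts and 907 bp into the gene. That call had a divergent partner 195 bp upstream. HSP90AA1, the inducible cytosolic form, held 8 internal calls, all between 50973 and 52704 bp from its outer 5′ end. The reverse call at 102087045 of chromosome 14 lay 1 base before the second listed start, the other sense calls lay 544, 1450 and 1732 bp from it, and 4 antisense calls lay between. No sense call lay at the outer end of HSP90AA1. So all 3 HSP90 genes had a call within 1 base of a listed start, 1 of them at the outer end.

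Outer ends and listed starts did not pick out quite the same genes. The promoter table, which gives 1 or more starts and the strand for 76 of the 84 genes, does not list CCT6A, DNAJC1, DNAJC5B, DNAJC22, DNAJC24, HSPA12B, HSPA14 and HSPB2. A sense call within 50 bp of a listed start was found for 47 of 76 chaperone genes (61.8%, 50.6 to 71.9), beside 40% of all protein-coding genes in the table. Among the 26 listed chaperone genes without a called start it was found for 4, namely HSP90AA1, HSP90AB1, HSPA2 and DNAJB1 (15.4%, 6.15 to 33.5), beside 7.11% of all such protein-coding genes. With these 4 added, 57 of 84 chaperone genes (67.9%) had a start by either rule, beside 44.6% of all protein-coding genes. Conversely, CCT5, CCT6B, DNAJC2, DNAJC8, DNAJC21, DNAJC27 and HSPH1 had a called start but no sense call within 50 bp of a listed start. By listed starts, TRiC had 6 of 8 genes in the promoter table, DNAJC 13 of 25 and HSP110 0 of 1. The median distance from the listed start to the nearest sense call within 500 bp was 3.5 bp for 54 chaperone genes and 9 bp for 7440 protein-coding genes.

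**Figure D2:**
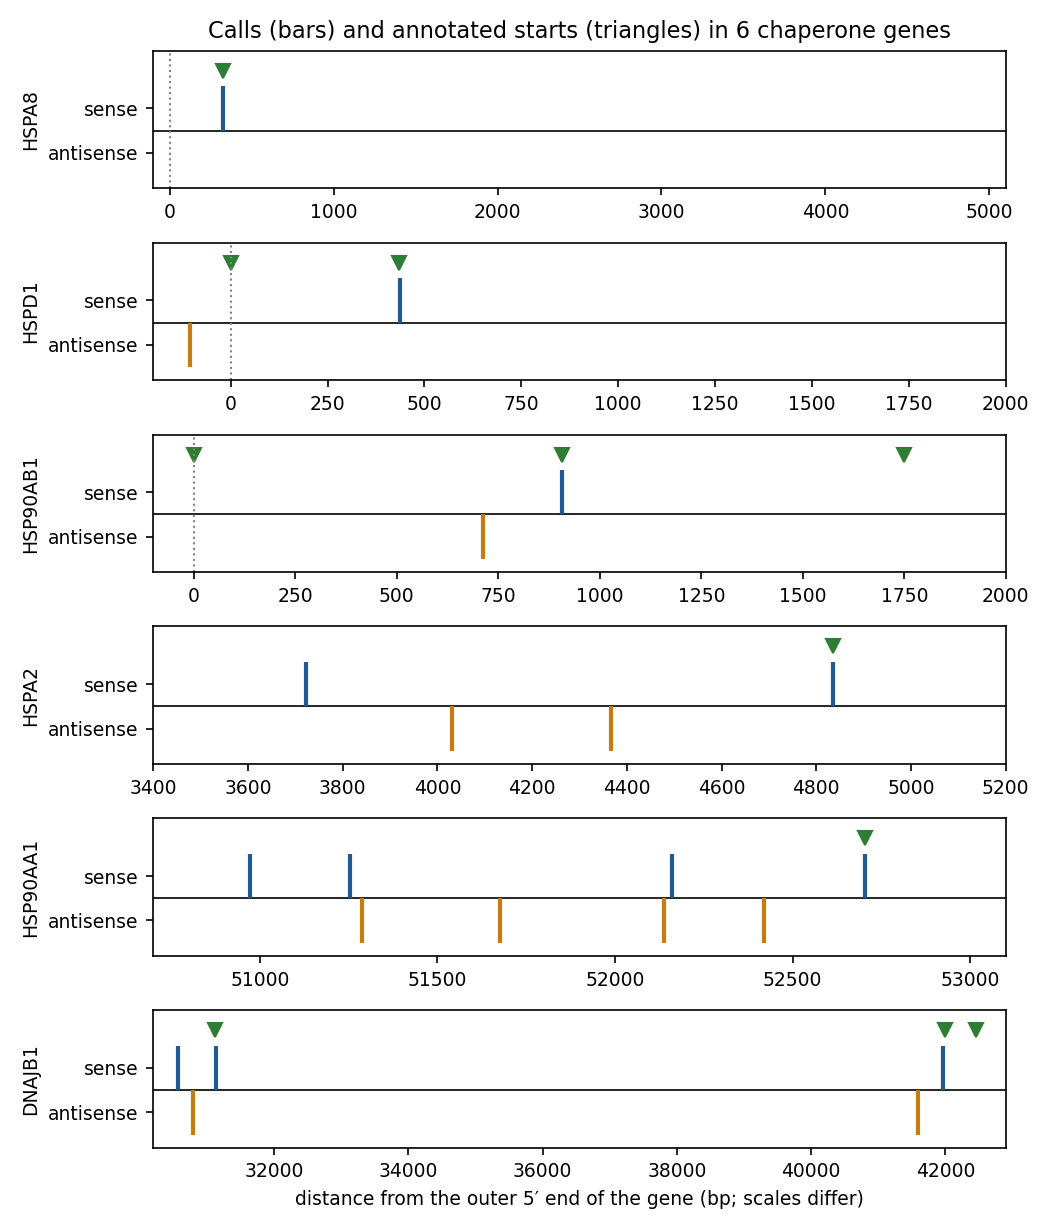
Calls in HSPA8, HSPD1, HSP90AB1, HSPA2, HSP90AA1 and DNAJB1 by distance from the outer 5′ end in bp (each panel has its own scale, and the panels of HSPA2, HSP90AA1 and DNAJB1 begin inside the gene). Sense calls are bars above the line, antisense calls bars below it and starts listed by RefSeq triangles, and in each gene a sense call stands under a triangle away from the outer end (dotted line where in view).

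HSPD1, which encodes HSP60, and HSPE1, which encodes its lid HSP10, lie head to head with 104 bases between them on chromosome 2. HSPE1 was called exactly at its annotated end, 197500379, and HSPE1-MOB4 shares that call. HSPD1 was called at 197499836, 438 bp inside its outer end and 4 bp downstream of its second listed start. These calls lay 543 bp apart and pointed away from each other, so that they fell outside the 300 bp limit for partners. HSPH1 (HSP110) was called at 31161946 of chromosome 13, 442 bp inside its outer end, the greatest distance among the 53 genes.

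All genes of TRiC, counting the testis-enriched CCT6B, had a called start. CCT3 was called exactly at its end (156338292 of chromosome 1), and CCT2 (69585458 of chromosome 12) and TCP1 (159789603 of chromosome 6) 1 bp outside. CCT7 was called at 73234318 of chromosome 2 (10 bp inside), CCT6A at 56051742 of chromosome 7 (23 bp outside), CCT8 at 29073612 of chromosome 21 (36 bp inside) and CCT4 at 61888634 of chromosome 2 (37 bp inside). CCT6B was called at 34961406 of chromosome 17 (54 bp inside), and CCT5 at 10250281 of chromosome 5, 360 bp inside the outer end. Of the 9 genes, 6 had a divergent partner, at 96 bp (CCT7), 120 bp (CCT4), 133 bp (CCT6B), 150 bp (CCT2), 249 bp (CCT3) and 272 bp (CCT8). The partner of CCT4 was the start of COMMD1 and that of CCT6B the start of ZNF830.

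Of the DNAJA genes, which pair with cytosolic or mitochondrial HSP70, DNAJA1 was called exactly at its end (33025273 of chromosome 9) and DNAJA2 3 bp inside (46973671 of chromosome 16). DNAJA4 had 2 inward calls, at 78264144 of chromosome 15 (1 bp outside) and at 78264562, exactly on its second listed start. Divergent partners lay 153 bp from the call of DNAJA1 and 129 bp from that of DNAJA2. DNAJA3 (TID1), the mitochondrial form, held no call.

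In DNAJB the called genes were DNAJB2, DNAJB4, DNAJB6, DNAJB9, DNAJB11, DNAJB12 and DNAJB14, all within 46 bp of the end. DNAJB9 and DNAJB11 are ER proteins that assist HSPA5, and DNAJB12 and DNAJB14 sit in the ER membrane. DNAJB4 had 3 inward calls and 5 internal ones, and its forward call at 78004939 of chromosome 1 fell exactly on its second listed start, 25764 bp into the gene. DNAJB1 (HSP40), the J protein that drives HSP70 in disaggregation, had no call at its outer ends and 5 inside. A reverse call at 14518420 of chromosome 19 lay 23 bp before a listed start 41994 bp into the gene, and another at 14529252 lay 19 bp after a listed start 31120 bp in. DNAJB5, DNAJB7, DNAJB8 and DNAJB13, of which DNAJB7, DNAJB8 and DNAJB13 are testis genes, held no call.

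In DNAJC, the most varied class, the called genes were DNAJC2, DNAJC3, DNAJC7, DNAJC8, DNAJC9, DNAJC10, DNAJC11, DNAJC13, DNAJC15, DNAJC16, DNAJC17, DNAJC19, DNAJC21, DNAJC24, DNAJC25, the read-through DNAJC25-GNG10, DNAJC27 and DNAJC30. Calls of 3 of them lay over 100 bp inside, at 129 bp in DNAJC19, 387 bp in DNAJC21 and 401 bp in DNAJC27. DNAJC9 (a histone chaperone), DNAJC11 and DNAJC17 had 2 inward calls each. DNAJC12, DNAJC22, DNAJC28, DNAJC5B and DNAJC5G held no call. DNAJC6 (auxilin), which uncoats clathrin vesicles in neurons, had no start but 7 internal calls. None of its 3 sense calls lay within 1000 bp of a listed start, and 1 of them, at 65277878 of chromosome 1, formed a divergent pair with a call 9 bp away. DNAJC5 (cysteine string protein) and DNAJC14 each held a single antisense call, 1341 and 984 bp from the outer 5′ end. DNAJC1, DNAJC4 and DNAJC18 had, within 500 bp of the gene, only a call that ran outward, 141, 95 and 71 bp outside an end, and that of DNAJC4 was the start of NUDT22. DNAJC4 also had an antisense call further off, at 64235085 of chromosome 11.

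Small HSPs were largely without calls. HSPB1 (HSP27), the widely expressed member, was called at 76302672 of chromosome 7, 1 bp outside its end, with a divergent partner at 168 bp. HSPB2, HSPB3, HSPB7, HSPB8 and HSPB9 held no call, and HSPB6, a muscle form, held 1 antisense call at 35755993 of chromosome 19. HSPB6 also had sense calls 642 and 908 bp outside its 5′ end. HSPBP1 was called at 55280111 of chromosome 19, 272 bp inside its outer end and 1 base before a listed start, and HSPBAP1 at 122793805 of chromosome 3, 26 bp inside, with a second inward call.

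Across the 53 genes the called start lay at a median of 5 bp inside the gene (quartiles -1 and 34, range -63 to 442), beside 4 bp (quartiles -1 and 32) for all protein-coding genes with a start. Of the 53, 26 (49.1%, 36.1 to 62.1) lay within 10 bp of the end, beside 45.9%. Over 100 bp from the end lay 8 (15.1%, 7.85 to 27.1), beside 13%, namely those of HSPA8, HSPH1, HSPD1, CCT5, DNAJC19, DNAJC21, DNAJC27 and HSPBP1. Of these 8, HSPA8, HSPD1, DNAJC19 and HSPBP1 were within 50 bp of a listed start. More than 1 inward call was found for 9 genes (17.0%, 9.20 to 29.2), beside 15.4%. No pair of calls on the same strand was closer than 251 bp, which limits such counts. Measured from the outer end, the background shares lay within the intervals of the chaperone genes.

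**Figure D3:**
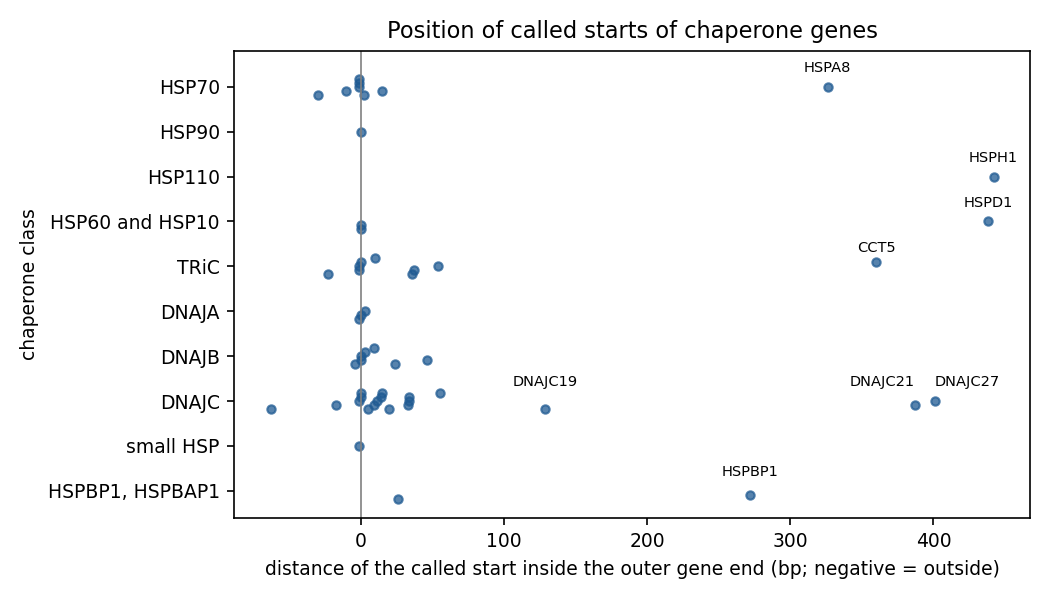
Distance in bp of the called start nearest to the outer gene end for the 53 chaperone genes with one, by class (points, shifted up or down where they would overlap, with names beyond 100 bp). Of the points, 26 lie within 10 bp of 0, and 8 genes lie between 129 and 442 bp inside.

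Divergent partners, that is, a call on the other strand 0 to 300 bp upstream that points the other way, were found for 29 of the 53 genes (54.7%, 41.5 to 67.3), beside 50.7%. The median distance was 153 bp in the chaperone genes and 153 bp in all protein-coding genes with a partner. By class, DNAJB had 6 of 7 (85.7%, 48.7 to 97.4), TRiC 6 of 9 (66.7%, 35.4 to 87.9), DNAJC 12 of 18 (66.7%, 43.7 to 83.7) and HSP70 2 of 8 (25%, 7.15 to 59.1), with overlapping intervals. The 2 in HSP70 were HSPA4 at 151 bp and HSPA4L at 11 bp, which are HSP110-type genes placed in this class by symbol. The closest partners in DNAJC were those of DNAJC2 at 26 bp, DNAJC10 at 33 bp and DNAJC21 at 114 bp. In DNAJB they were those of DNAJB4 at 128 bp, DNAJB14 at 152 bp and DNAJB2 at 163 bp. A convergent partner, 1 to 300 bp downstream, was found for 2 of 53, DNAJB12 at 195 bp and HSPA4L at 271 bp, beside 8.12%.

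For 7 of the 29 genes the partner was itself the start of a coding gene. DNAJA1 was paired with APTX, DNAJB4 with FUBP1, DNAJB9 with THAP5, DNAJC7 with NKIRAS2, DNAJC30 with BUD23, CCT4 with COMMD1 and CCT6B with ZNF830. For 8 it lay at the end of a noncoding gene, among them the divergent transcripts DNAJA2-DT and DNAJC3-DT and the antisense genes DNAJC9-AS1 and DNAJC27-AS1. DNAJC25 and DNAJC25-GNG10 count separately here, although they share 1 call and 1 partner. For the other 14, such as HSPA4, HSPB1, CCT3 and DNAJB6, it lay at no gene end of the table.

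**Figure D4:**
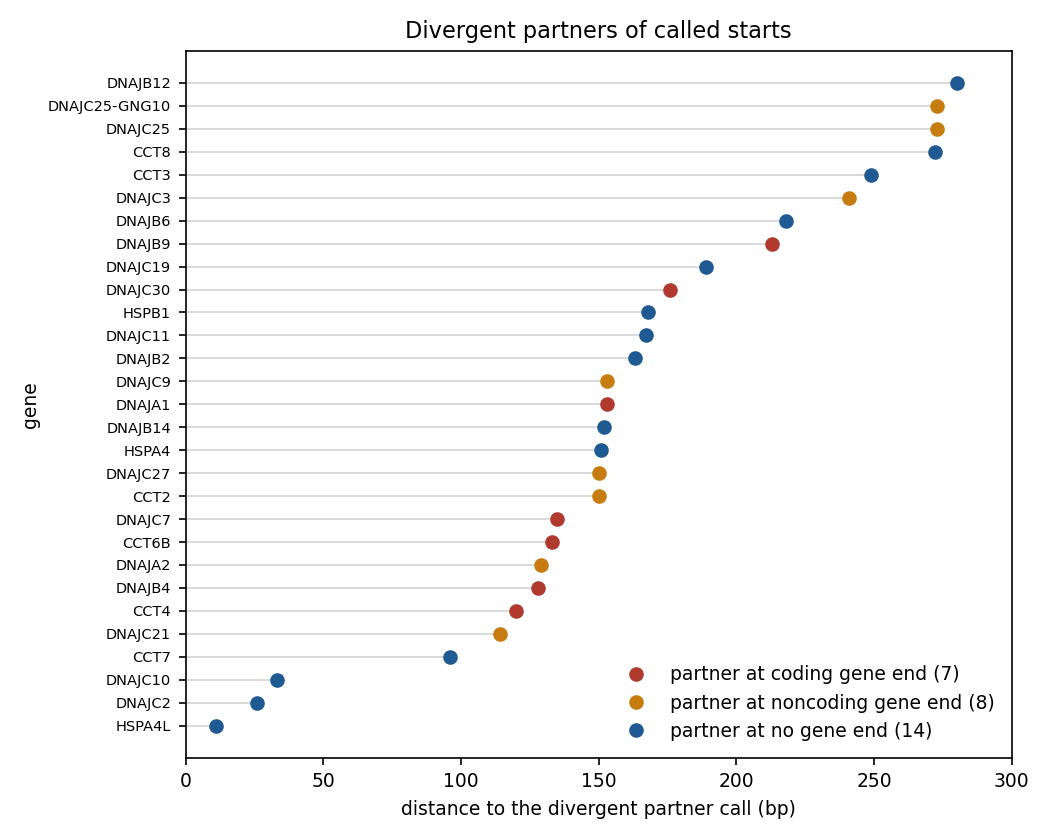
Distance in bp from the called start to its divergent partner for the 29 chaperone genes with one, in order of distance, coloured by what lies at the partner. Distances run from 11 bp (HSPA4L) to 280 bp (DNAJB12), with 7 partners at coding gene ends, 8 at noncoding gene ends and 14 at none.

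Inside the genes, more than 500 bp from both ends, 20 of 84 chaperone genes held 48 calls (23.8% of genes, 16.0 to 33.9), beside 20.7% of all protein-coding genes. Of these 48 calls, 21 were sense, 26 antisense and 1 lay in HSPA12B, whose strand is not in the promoter table. Only 7 of the sense calls were within 50 bp of a listed start, and 14 were not. HSP90AA1 with 8, DNAJC6 with 7, DNAJB1 and DNAJB4 with 5 each and HSPA2 with 4 held most of them.

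Heat shock elements were searched as GAANNTTC or TTCNNGAA in the promoter windows of the RefSeq table, 250 bases before to 50 bases from each listed start. Both patterns read the same on both strands and may overlap each other. They were found in 27 of 99 windows of chaperone genes (27.3%, 19.5 to 36.8), beside 11.6% of all protein-coding windows, and in 26 of 76 genes, beside 14.9% of protein-coding genes in the table. By class they were found in 7 of 12 HSP70 genes, 4 of 6 small HSPs, 2 of 3 HSP90 genes, 4 of 8 TRiC genes, 2 of 4 DNAJA genes, 4 of 12 DNAJB genes and 1 of 3 genes of HSP60 and HSP10, but in 2 of 25 DNAJC genes. The match at 31815437 to 31815444 of chromosome 6 lies in windows of both HSPA1A and HSPA1L and is counted for each. Of the 26 genes with a match 15 had a called start (57.7%, 38.9 to 74.5), and of the 50 without one 35 (70%, 56.2 to 80.9), beside 37.4% and 44.6% of all protein-coding genes in the table. With a sense call within 50 bp of a listed start counted instead, the order turned, with 17 of 26 (65.4%, 46.2 to 80.6) against 30 of 50 (60%, 46.2 to 72.4), beside 36% and 40.6%. The intervals overlapped by both rules. A match within 150 bp upstream of the sense call nearest to a listed start was found in 6 of 48 chaperone genes (12.5%, 5.86 to 24.7), beside 4.22%, namely DNAJA4, DNAJB4, DNAJB6, HSP90AA1, HSPA6 and HSPA8. DNAJB1 had such matches before the call near another of its 3 listed starts, the one 41994 bp into the gene.

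The sequences show where the element stood relative to the call. Each is given 5′ to 3′ on the strand of the gene, with heat shock element matches in capitals and the called base as a single capital letter. HSPA8 (chr11:123062107-123062266, reverse strand) and HSP90AA1 (chr14:102087015-102087174, reverse strand) have overlapping matches that end 43 and 75 bp before the call, and HSP90AA1 has another that ends 60 bp before it. HSPA6 (chr1:161524410-161524569, forward strand) has overlapping matches that end 61 bp before the call. DNAJB1 (chr19:14518368-14518527, reverse strand) has 2, ending 47 and 17 bp before it.
HSPA8: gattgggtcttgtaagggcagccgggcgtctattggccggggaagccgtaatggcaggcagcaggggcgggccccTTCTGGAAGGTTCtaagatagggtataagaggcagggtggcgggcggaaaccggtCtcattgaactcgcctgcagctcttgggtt
HSP90AA1: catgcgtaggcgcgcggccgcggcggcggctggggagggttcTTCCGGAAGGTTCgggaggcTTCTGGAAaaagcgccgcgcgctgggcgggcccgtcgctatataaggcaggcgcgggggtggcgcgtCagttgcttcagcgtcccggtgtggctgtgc
HSPA6: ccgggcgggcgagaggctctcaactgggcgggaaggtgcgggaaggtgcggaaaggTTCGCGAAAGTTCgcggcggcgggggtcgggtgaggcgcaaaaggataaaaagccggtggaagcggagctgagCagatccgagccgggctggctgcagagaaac
DNAJB1: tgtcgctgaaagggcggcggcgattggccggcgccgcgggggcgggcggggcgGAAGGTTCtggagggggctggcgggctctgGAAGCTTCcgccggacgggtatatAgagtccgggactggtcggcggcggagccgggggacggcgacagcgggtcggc
These 4 genes, 1 called near its outer end and 3 called at listed starts further in, carried the matches described within the 100 bp before the call.

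In DNAJA4 (chr15:78264432-78264591, forward strand) and DNAJB4 (chr1:78004809-78004968, forward strand) the matches lay before the call at the second listed start, 45 and 84 bp before it in DNAJA4 and 91 bp before it in DNAJB4. In DNAJA1 (chr9:33025213-33025302, forward strand) overlapping matches began 3 bp after the call. They are shown because the same letters stand on either side of the start.
DNAJA4: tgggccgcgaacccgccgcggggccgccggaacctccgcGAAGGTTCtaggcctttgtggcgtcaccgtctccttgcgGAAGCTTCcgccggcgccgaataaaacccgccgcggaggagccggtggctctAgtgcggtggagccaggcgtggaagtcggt
DNAJB4: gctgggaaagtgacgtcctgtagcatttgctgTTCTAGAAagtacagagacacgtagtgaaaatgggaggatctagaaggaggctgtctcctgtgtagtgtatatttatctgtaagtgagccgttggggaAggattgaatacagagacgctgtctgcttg
DNAJA1: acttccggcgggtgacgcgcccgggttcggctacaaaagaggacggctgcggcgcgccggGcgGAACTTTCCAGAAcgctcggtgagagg
In HSPD1 (chr2:197499811-197500090, reverse strand) 3 overlapping matches lay 232 to 249 bp before the call, in the stretch between the calls of HSPD1 and HSPE1. In HSP90AB1 (chr6:44247775-44247804, forward strand) the matches lay 677 to 742 bp after the call, before the third listed start, which had no sense call within 500 bp. The stretch of HSP90AB1 shown holds the first pair and not the call. HSPA1A (chr6:31815413-31815572, forward strand), shown as the inducible gene without a call, has a match 99 to 106 bp before its listed start.
HSPD1: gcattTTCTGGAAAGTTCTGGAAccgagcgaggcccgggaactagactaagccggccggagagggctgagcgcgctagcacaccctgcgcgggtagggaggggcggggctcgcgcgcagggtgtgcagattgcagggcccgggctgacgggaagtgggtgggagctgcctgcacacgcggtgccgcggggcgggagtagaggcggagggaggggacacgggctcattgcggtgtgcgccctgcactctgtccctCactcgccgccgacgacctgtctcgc
HSP90AB1: aggTTCTGGAAGATTCatgggctccttcct
HSPA1A: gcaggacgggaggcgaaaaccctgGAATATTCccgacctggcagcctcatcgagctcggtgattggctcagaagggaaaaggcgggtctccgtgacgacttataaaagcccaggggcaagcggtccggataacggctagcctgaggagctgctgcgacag

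**Figure D5:**
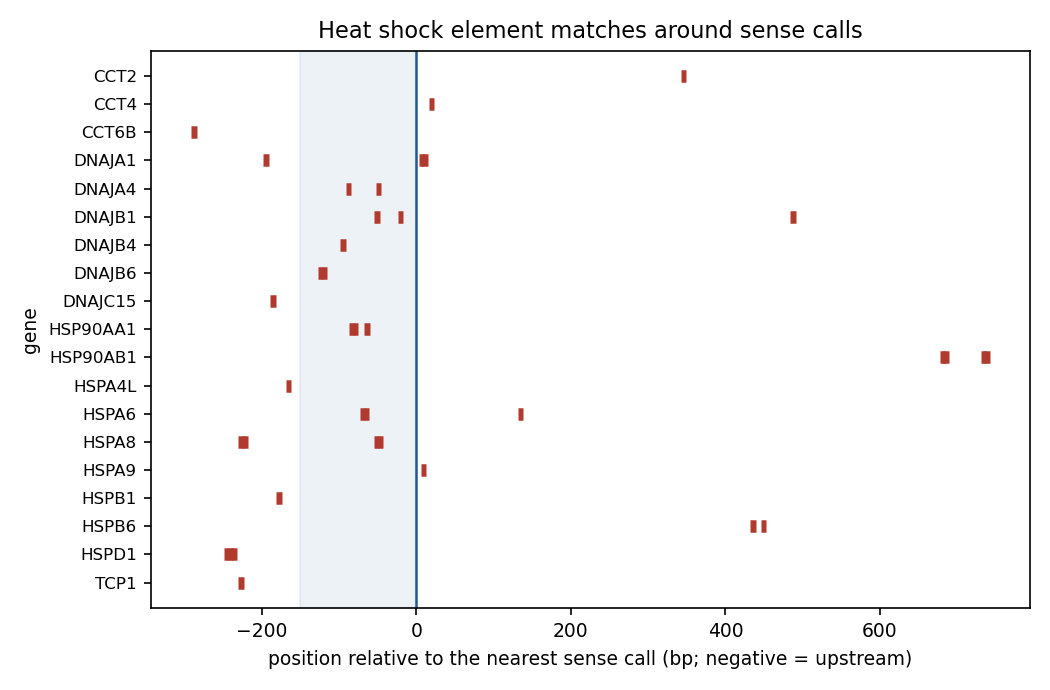
Heat shock element matches (red) in promoter windows of 19 chaperone genes with a sense call within 1000 bp, by position in bp relative to the sense call nearest to each match (blue line, shading from 150 bp upstream). Of the 46 matches found, 38 are drawn, 14 of them in the shaded stretch, in 7 genes, whereas those of HSP90AB1 lie 677 to 742 bp downstream. The 46 count the match shared by HSPA1A and HSPA1L, which is not drawn, once for each gene.

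Of the other patterns, TATAAA was found on either strand in 12 of 99 chaperone windows (12.1%, 7.07 to 20.0), beside 9.46%, and in HSPA1A, HSPA1B, HSPB3, HSPB6 and HSPB7 it began 28 to 32 bp before a listed start on the strand of the gene. None of these 5 genes had a called start, beside 21.4% of all protein-coding genes with TATAAA so placed, and HSPA1A and HSPA1B lie in the chromosome 6 stretch without calls. GGGCGG, the GC box, was found in 70 windows (70.7%, 61.1 to 78.8), beside 56.3%, and CCAAT in 38 (38.4%, 29.4 to 48.2), beside 34.6%. Windows of 1 gene can overlap and hold the same match. Counted by gene, GGGCGG was found in 54 of 76 chaperone genes, beside 10159 of 15812 protein-coding genes, and CCAAT in 33, beside 6657. The ER stress element, CCAAT and CCACG with any 9 bases between them, was found in 2 windows, those of HSPA5 and HSP90B1, beside 0.104% of all protein-coding windows. Both genes encode ER chaperones that are known targets of the unfolded protein response. HSPA5 (chr9:125241314-125241473, reverse strand) carries it as spelled, 48 to 66 bp before its listed start. HSP90B1 (chr12:103930280-103930439, forward strand) has 2 matches, as spelled 176 to 194 bp and as the reverse complement 71 to 89 bp before its start, and the stretch shown holds the second. The element and the called base are in capitals.
HSPA5: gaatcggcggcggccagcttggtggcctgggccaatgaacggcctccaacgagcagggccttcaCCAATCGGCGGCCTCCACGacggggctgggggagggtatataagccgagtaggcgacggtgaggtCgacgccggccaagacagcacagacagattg
HSP90B1: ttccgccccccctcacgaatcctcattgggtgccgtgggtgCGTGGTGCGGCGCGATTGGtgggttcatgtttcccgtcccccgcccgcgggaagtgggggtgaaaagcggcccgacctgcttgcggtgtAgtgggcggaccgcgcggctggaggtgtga
A match is a run of letters in a window and says nothing of whether a factor was bound there.

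The called base itself was compared with its neighbours, since most transcripts of RNA polymerase II begin at a purine after a pyrimidine, often the A of CA. In 48 chaperone genes with the nearest sense call inside a promoter window, the called base and the next one read CA in 12 (25%, 14.9 to 38.8), as in HSP90AA1, HSPA6, HSPD1, CCT2 and TCP1. The base before the call and the called base read CA in 1 (2.08%, 0.369 to 10.9). For 6488 protein-coding genes these shares were 36.8% and 1.29%, and on the forward and reverse strand alike the called base and the next one read CA in 36.9% and 36.7%. Any pyrimidine followed by any purine gave another order in the chaperone genes, with overlapping intervals. It stood at the called base and the next one in 18 of 48 (37.5%, 25.2 to 51.6), beside 47.0%. At the base before the call and the called base it stood in 20 (41.7%, 28.8 to 55.7), beside 30.9%. The call lay 1 base before the listed start in 10 of 47 chaperone genes with a call within 50 bp (21.3%, 12.0 to 34.9), beside 22.2% of 6319 protein-coding genes. It lay exactly on the listed start in 14 (29.8%, 18.7 to 44.0), beside 13.4%, a share below that interval. Over all protein-coding genes the most frequent distance was 1 base before the listed start, and where CA stood at a call its A was most often the base after the called one. Whether the deposited positions are shifted by 1 base was not settled. With such a shift, each call given here as exactly on a start, and each called base in capitals, would move 1 base downstream.

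By place in the cell or tissue, the lists of chaperone genes overlap the classes above. These lists, and those of partner genes below, were chosen with earlier results of these data known. Their shares describe the listed genes only, and no contrast between lists follows from them. Of 14 members of the ER 11 had a called start (78.6%, 52.4 to 92.4), and DNAJC1, DNAJC14 and DNAJC18 did not. Of 9 mitochondrial members 7 had one (77.8%, 45.3 to 93.7), and DNAJA3 and DNAJC28 did not. All 6 members listed as working at the ribosome, in splicing or on chromatin had one (61.0 to 100), namely DNAJC2, DNAJC8, DNAJC9, DNAJC17, DNAJC21 and HSPA14. Of 13 members known mainly from testis or muscle 1 had one, CCT6B (7.69%, 1.37 to 33.3), whose call lay 133 bp from that of ZNF830. Of the others, HSPA2 had the inner call on its listed start, and HSPA1L lies in the chromosome 6 stretch without calls. The share of all protein-coding genes with a called start, 41.4%, stands beside each of these lists. DNAJB3, also on this list, is not among the protein-coding genes of the table. Of 3 endocytic or synaptic members 1 had one, DNAJC13, and DNAJC5 and DNAJC6 did not. Of 12 members known as targets of HSF1, a list that also holds the constitutive HSPA8 and HSP90AB1, 7 had one (58.3%, 32.0 to 80.7), and DNAJB1, HSP90AA1 and HSP90AB1, with calls at inner starts, and HSPA1A and HSPA1B did not.

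Genes that act with these chaperones but carry other symbols were looked up by the same rule. The share of all protein-coding genes with a called start, 41.4%, stands beside each of the counts that follow. Of 16 partners of HSP70, 14 had a called start (87.5%, 64.0 to 96.5), such as BAG1, BAG2, BAG3 and BAG4, whereas BAG6 and STIP1 had none. Of 17 partners of HSP90, 14 had one (82.4%, 59.0 to 93.8), such as AHSA1, CDC37, CDC37L1 and CHORDC1, whereas FKBP5, TSC1 and UNC45B had none. Of 15 prefoldin subunits and TRiC partners 11 had one (73.3%, 48.0 to 89.1), such as BBS10, MKKS, PDCL and PDCL3, whereas BBS12, PFDN6, URI1 and VBP1 had none. Of the heat shock factor list HSBP1, HSF1 and HSF2 had a start and HSF4 and HSF5 had none. Of 11 other chaperones 7 had one (63.6%, 35.4 to 84.8), such as AHSP, the chaperone of alpha globin, CALR, CANX and CLPB, whereas CRYAA, CRYAB, NPM1 and SERPINH1 had none. BAG6 and PFDN6 lie in the chromosome 6 stretch without calls. Any call in the gene or within 500 bp of it was found for 15 of 16 partners of HSP70 and 16 of 17 of HSP90. It was found for 14 of 15 prefoldin subunits and TRiC partners, 4 of 5 of the heat shock factor list and 9 of 11 other chaperones. Beside these stands 52.6% of all protein-coding genes. FKBP5 held 8 such calls, whereas BAG6, PFDN6, UNC45B, HSF4, CRYAA and CRYAB held none.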

How the data were processed

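PRO-cap of 2 replicates of wild-type HUDEP-2 cells is represented by 1 deposited list of calls per strand. Per the submitters' processing notes, BWA 0.7.16a, Picard, SAMtools 1.17, deepTools 3.5.4 and hg38 were used. The calling threshold and the way replicates were combined are both not given in the sources used here. Every call has 0 in the deposited score column. The other deposited columns used are positions, and column 3 was taken as the 1-based position.

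Calls on chromosomes 1 to 22 and X (26332, with 63 left out) were set against the RefSeq gene table after 679 entries on other scaffolds were removed, and against the starts, strands and 300-base windows of the RefSeq promoter table (GRCh38.p14). Shares carry 95% Wilson intervals (scipy 1.17.1, Python 3.11.15). No test was run, since there is 1 group and genes are not replicates. The steps were tested on simulated calls.

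Members and lists were chosen with earlier results of these data known. All members are named. Positions are given for called members of HSP70, HSP90, HSP110, HSP60 and HSP10, TRiC and DNAJA. In the other classes, positions or distances are given for members with several inward calls, with internal calls but no start, with a start over 100 bp from the end or with the closest partners. Of partner genes, all names are given where 5 or fewer fall on a side, and otherwise the first 4 by alphabet. A few genes of the marker and partner lists are not reported here and were left out of those counts, which moves the shares of the partner lists. Protein features that had been planned were not run. Windows of 200 and 1000 bp, partner limits of 150 and 500 bp and sets of members were varied, and the rules on listed starts within 50 bp were chosen after seeing the data.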

Additional observations from a re-analysis of the deposited data

How the results depend on the processing

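The share of chaperone genes with a called start stayed between 54.8% (window of 200 bp) and 67.9% (a sense call within 50 bp of any listed start also counted, an alternative chosen after seeing the data), within the interval of the reported 63.1% under all 9 alternatives tried. Over all protein-coding genes the share was 38.2% with 200 bp and 44.1% with 1000 bp. Class counts moved by more than 1.5 times in small classes. HSP90 went from 1 to 2 with 1000 bp and to 3 with listed starts, HSP110 from 1 to 0 with 200 bp, small HSPs from 1 to 2 with 1000 bp and to 0 among genes of at least 2000 bp, and HSPBP1 and HSPBAP1 from 2 to 1 with 200 bp. The length limit left 3 of the 7 small HSPs and dropped the called HSPB1 itself, which is 1620 bp long. The share with a divergent partner was 22.6% within 150 bp and 67.9% within 500 bp, beside 24.6% and 62.1% of all protein-coding genes with a start. The median distance of the called start from the end went from 5 bp to 1 bp with 200 bp, and to 4 bp with 1000 bp or with column 2 as the position, within its 95% interval of 0 to 15 bp. Internal calls went from 48 to 42 when over 1000 bp from both ends was asked. No paired analysis was possible because the call lists hold no value per replicate, and for that reason no replicate could be left out. With depth unknown, a missing call is no measure that transcription was absent.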
